A study of Canis lupus familiaris with 4 samples.

Results

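Interferon-γ, the cytotoxic lymphocyte and the chemokines that bring such cells into skin were followed through 5 genes, *IFNG*, *IL12B*, *KLRD1*, *CXCL10* and *CCL5*, in diseased dog skin. These genes were chosen by their RefSeq transcripts and are 5 of the 160 targets of a custom NanoString panel, a method that counts barcoded probes without amplification. All 4 samples were archival formalin-fixed, paraffin-embedded skin biopsies, 1 per dog. One came from a 5-year-old spayed female Boxer with erythema multiforme (EM), a cytotoxic interface dermatitis in which T cells attack basal keratinocytes. The 3 comparatives, which the labels call controls, were inflamed skin in which the basal keratinocytes are not the target. They were a cell poor vasculitis (CPV) biopsy from a 4-year-old spayed female Pomeranian and pyoderma biopsies from neutered males, a 7-year-old Golden Retriever (case 1) and a 9-year-old German Shepherd (case 2). The labels give no treatment, body site or lesion age, and healthy skin was not analysed here. Each biopsy is a mix of epidermis, dermis and infiltrate, so fewer cells of a type and less RNA per cell cannot be told apart.

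Interferon-γ is released by T helper 1 cells, CD8+ T cells and natural killer cells. Interleukin-12, whose p40 subunit is encoded by *IL12B* and made by macrophages and dendritic cells, drives these lymphocytes to make it. *KLRD1* encodes CD94, a lectin-like receptor chain of natural killer cells and some cytotoxic T cells. CXCL10 is a chemokine induced in keratinocytes and other cells by interferons, and it attracts cells that carry CXCR3, among them T helper 1 and cytotoxic T cells. CCL5 is released by activated T cells, natural killer cells and stromal cells and attracts T cells and monocytes. In interface dermatitis this axis is known as a loop in which interferon-γ raises chemokines that recruit further cytotoxic cells.

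The 5 genes fell into 3 patterns. *CXCL10* and *CCL5* were highest in the EM biopsy, *IFNG* and *KLRD1* were lowest there (*KLRD1* under only 5 of 9 scalings), and *IL12B* was highest in the CPV biopsy. The EM biopsy thus had the most *CXCL10* and *CCL5* transcript and the least *IFNG*. Over the panel, 21.2% of targets were highest and 33.8% lowest in EM. It had 181 *CXCL10* counts for each *IFNG* count, where the comparatives had between 25.3 and 49.4. For 67.3% of the other targets, too, the ratio to *IFNG* was highest in EM. In edgeR's quasi-likelihood test of EM against the comparatives, 0 of the 5 genes passed an adjusted p of 0.05, and neither did any of the 160 targets (0% called). At an unadjusted p under 0.05 the edgeR test gave 3 targets higher (1.88%) and 3 lower (1.88%) in EM, none of them a member. Other scalings moved that split towards either side. DESeq2 gave 0 adjusted (0%) and 11 unadjusted calls (6.88%), also without a member. Since only 1 EM biopsy was analysed, the spread between EM dogs is unknown. An exact permutation test of 1 biopsy against 3 cannot go below p = 0.25.

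All 5 genes exceeded background in all 4 biopsies, as did 129 of the 160 targets. Background was set for each biopsy as the mean + 2 SD of 8 negative control probes and lay between 13.0 and 16.3 counts. The summed target count of a biopsy was between 517282 and 808877. Counts were then scaled by the geometric mean of the housekeeping genes *B2M*, *RPL13A* and *HPRT1* to give normalized counts. All intervals are exact 95% limits and cover only counting error. The levels of different genes are not set against each other, because each probe has its own efficiency. The keratin genes named here and the dermal collagen gene *COL1A1* exceeded background in all 4 biopsies, and *COL1A1* was at 4310 normalized counts in CPV and between 44948 and 138520 in the others.

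Raw counts of *IFNG* (NM_001003174.1) were 40 in EM, 70 in CPV, 64 in pyoderma case 1 and 85 in pyoderma case 2. Normalized counts were 32.9 (95% limits 23.5 to 44.7) in EM, 77.6 in CPV, 70.1 in pyoderma case 1 and 87.8 in pyoderma case 2. EM was the low biopsy, as for 33.8% of targets, and the 3 comparatives lay close together, at 78.5 ± 8.88 (SD, n = 3). Pyoderma case 1, the next above EM, exceeded it 2.14-fold (95% limits 1.42 to 3.25), while the neighbouring comparatives differed by 1.13-fold and 1.11-fold, with limits that included 1. The EM count was 2.45 times its background, and those of the comparatives were between 4.60 and 5.35 times theirs. *IFNG* therefore stood nearest to the negative control probes in the biopsy where it was lowest. The log2 difference between EM and the comparatives was −1.23, beyond the SD of 0.16 of the comparatives. The log2 fold change was −1.25 (standard error 0.83, edgeR adjusted p = 0.714).

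**Figure D1:**
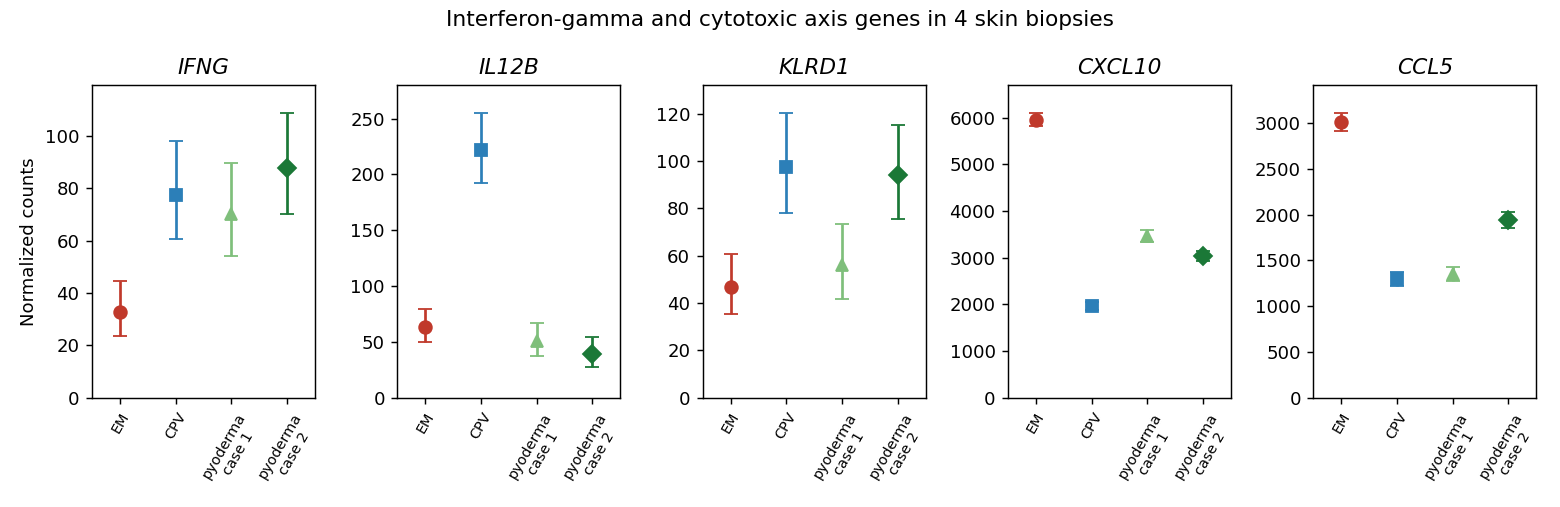
Normalized counts (linear axes from 0, one scale per gene) of the 5 genes in the EM, CPV and 2 pyoderma biopsies; points are single biopsies and bars are exact 95% Poisson limits. EM is lowest for *IFNG* (32.9) and highest for *CXCL10* (5957) and *CCL5* (3006), and CPV is highest for *IL12B* (222).

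*IL12B* (NM_001003292.1), upstream of interferon-γ, was counted 77 times in EM, 200 times in CPV, 46 times in pyoderma case 1 and 38 times in pyoderma case 2. CPV stood alone, at 222 normalized counts (95% limits 192 to 255) against 63.2 in EM, 50.4 in pyoderma case 1 and 39.3 in pyoderma case 2. CPV exceeded EM, the next in order, 3.51-fold (95% limits 2.68 to 4.62). The other 3 biopsies were not resolved from their neighbours, since EM exceeded pyoderma case 1 by 1.25-fold (0.86 to 1.85) and case 1 exceeded case 2 by 1.28-fold (0.82 to 2.03). Over the panel, 26.9% of targets were highest in CPV. EM was neither above nor below all comparatives. Its log2 difference of −0.27 was smaller than their SD of 1.33 and became 0.50 without the CPV biopsy. The order of *IL12B* did not follow that of *IFNG*, since pyoderma case 2 had the highest *IFNG*, as for 26.9% of targets, and the lowest *IL12B*. Neither rank was resolved from the next biopsy by the counting limits, and under 1 of the 9 scalings *IFNG* was highest in CPV.

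*KLRD1* (NM_001048035.1), the only one of 5 natural killer and cytotoxic cell markers paired with a target, was counted 57 times in EM, 88 times in CPV, 51 times in pyoderma case 1 and 91 times in pyoderma case 2. Normalized counts were 46.8 in EM (95% limits 35.5 to 60.6), 97.6 in CPV, 55.9 in pyoderma case 1 (41.6 to 73.5) and 94.0 in pyoderma case 2. The biopsies formed a low pair, EM and pyoderma case 1, and a high pair, CPV and pyoderma case 2. Within the pairs the levels differed by 1.19-fold (0.80 to 1.77) and 1.04-fold (0.77 to 1.41), and between them by 1.68-fold (1.18 to 2.42). That last step lies between the 2 pyoderma biopsies, so dogs with one diagnosis differed as much as any neighbours in the order. EM was lowest under 5 of 9 scalings and pyoderma case 1 under the other 4. The log2 difference between EM and the comparatives was −0.76, with an SD of 0.44 among the comparatives.

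**Figure D2:**
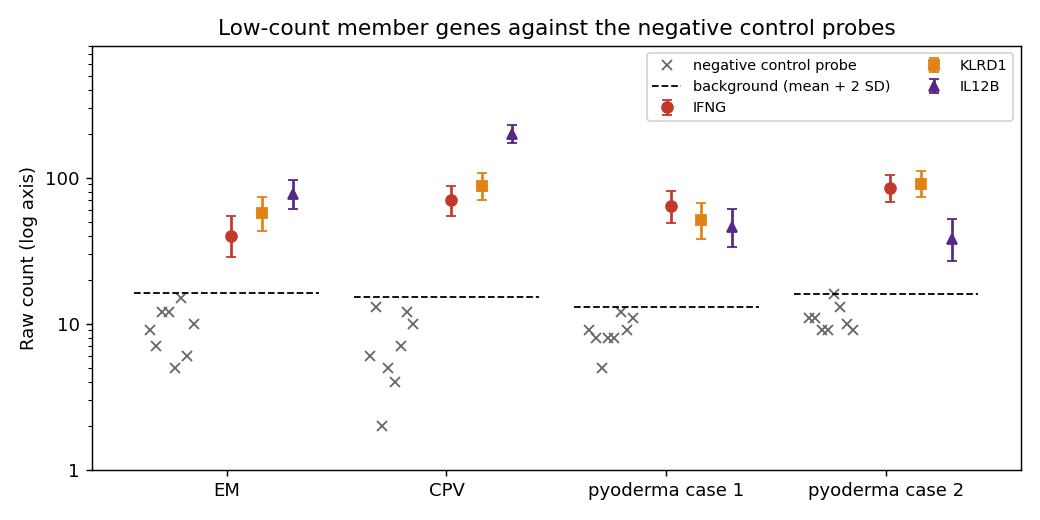
Raw counts (log axis) of *IFNG*, *KLRD1* and *IL12B* with exact 95% Poisson limits, beside the 8 negative control probes (crosses) and the background of each biopsy (dashed line). All 3 genes lie above background in every biopsy, and the lowest multiples are those of *IL12B* in pyoderma case 2 (2.39) and *IFNG* in EM (2.45).

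*CXCL10* (NM_001010949.1) was counted 7253 times in EM, 1771 times in CPV, 3160 times in pyoderma case 1 and 2936 times in pyoderma case 2. It took 1.21% of all target counts in EM and between 0.219% and 0.568% in the comparatives. EM was thus highest on 2 measures that use no housekeeping gene. In normalized counts EM exceeded pyoderma case 1 by 1.72-fold (95% limits 1.65 to 1.79), and pyoderma case 2 exceeded CPV, the lowest as for 31.9% of targets, by 1.55-fold (1.46 to 1.64). The pyoderma biopsies differed from each other by 1.14-fold (1.09 to 1.20). The log2 fold change between EM and the comparatives was 1.08 (standard error 0.71, edgeR adjusted p = 0.714).

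*CCL5* (NM_001003010.1) was counted 3660 times in EM, 1167 times in CPV, 1235 times in pyoderma case 1 and 1880 times in pyoderma case 2. EM was again highest, at 1.55 times the normalized count of pyoderma case 2 (95% limits 1.46 to 1.64). Pyoderma case 2 exceeded case 1 by 1.44-fold (1.34 to 1.54), so the spread between dogs with pyoderma was nearly as large as the step up to EM. Case 1 and CPV were not resolved from each other, at 1.05-fold (0.96 to 1.13). CPV was lowest under 5 of the 9 scalings and pyoderma case 1 under 4. The log2 fold change between EM and the comparatives was 0.97 (standard error 0.67, edgeR adjusted p = 0.714). Both chemokines lay clear of the counting limits of every comparative under all 9 scalings, as did 8.12% of all targets. With the housekeeping scaling alone the share was 12.5%. These limits are narrow for abundant targets and leave out the spread between dogs.

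Of the 5 genes, 2 were highest in EM and 2 were lowest, so for 4 of them EM was beyond every comparative. Over the whole panel 21.2% of targets were highest in EM and 33.8% were lowest there, 55% in all. The median log2 difference of the panel was −0.19. Relative to it, EM differed by −1.04 for *IFNG*, −0.08 for *IL12B*, −0.57 for *KLRD1*, 1.31 for *CXCL10* and 1.19 for *CCL5*. Ordered by this difference from the most positive, *CXCL10* came 18th and *CCL5* 23rd of the 160 targets, and *IFNG* came 18th from the other end. The 5 genes were thus not at the extremes of the panel. Their fold between the highest and lowest biopsy ran from 2.08 for *KLRD1* to 5.65 for *IL12B*, where the panel median was 2.77. *IL12B* lay above the upper quartile of the panel and *KLRD1* just below the lower quartile. *IFNG*, *CXCL10* and *CCL5* lay between the quartiles.

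The ratio of 2 genes within a biopsy does not depend on the scaling, and it sets the cytokine against the chemokines it induces. The ratio of *CXCL10* to *IFNG* counts was 181 in EM (95% limits 133 to 254), 25.3 in CPV (19.9 to 32.6), 49.4 in pyoderma case 1 (38.6 to 64.3) and 34.5 in pyoderma case 2 (27.8 to 43.4). EM exceeded the highest comparative by 3.67-fold and its limits were clear of all 3, as they were for the ratio to *IFNG* of 33.3% of the other targets. The pyoderma biopsies differed by 1.43-fold. On the log2 scale EM differed by 2.37 from the comparatives, whose SD was 0.48. With the housekeeping scaling the 2 genes entered it with log2 differences of similar size and opposite sign, 1.12 for *CXCL10* and −1.23 for *IFNG*. This split depended on the scaling. It was 1.58 and −0.77 with the panel total, and 0.94 and −1.40 with *B2M* left out of the housekeeping genes. With the mean of the negative control probes subtracted from both counts, the log2 difference of the ratio was 2.57.

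The ratio of *CCL5* to *IFNG* was 91.5 in EM (95% limits 67.1 to 128), 16.7 in CPV, 19.3 in pyoderma case 1 and 22.1 in pyoderma case 2. Again the 3 comparatives lay close to their mean of 19.4 ± 2.72 (SD, n = 3), and EM stood 4.14-fold above the highest of them. Here the pyoderma biopsies differed by only 1.15-fold, although *IFNG* and *CCL5* each differed more between them, both being higher in case 2. Because *IFNG* was low in EM, the ratio to *IFNG* was highest in EM for 107 of the 159 other targets (67.3%). The position of EM as the highest is therefore shared by most of the panel. By size of the log2 difference, *CXCL10* came 19th and *CCL5* 23rd of these 159.

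**Figure D3:**
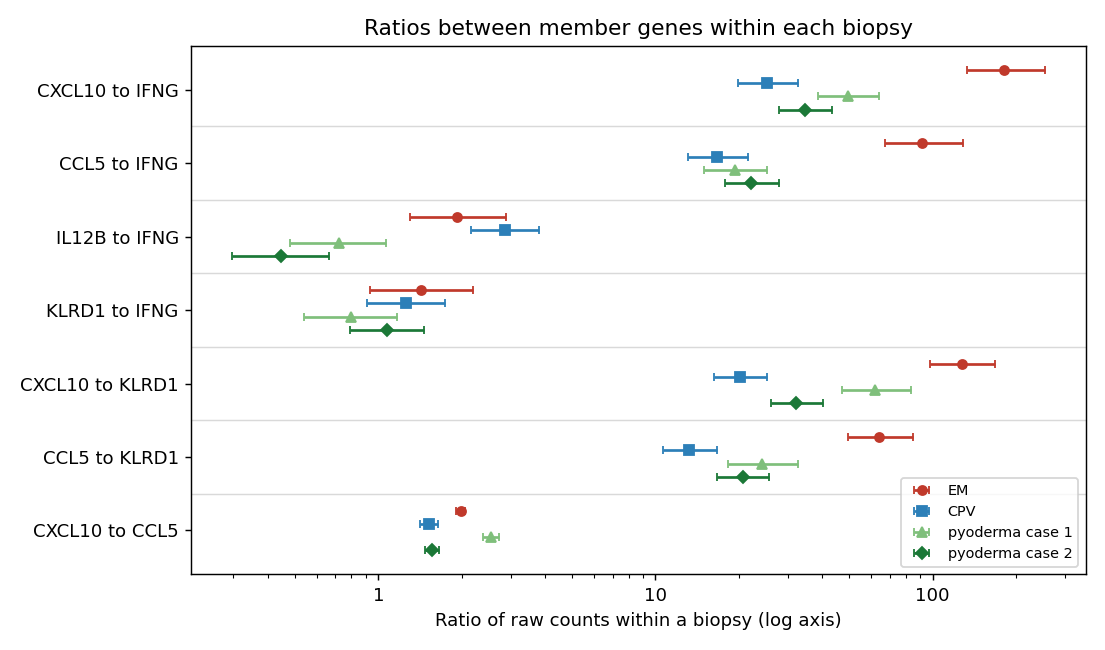
Ratios of raw counts between pairs of the 5 genes within each biopsy (log axis), with exact 95% limits from the binomial split of the 2 counts. EM lies clear of the comparatives for *CXCL10* and *CCL5* over *IFNG* (181 and 91.5) and over *KLRD1* (127 and 64.2), while the 4 intervals of *KLRD1* over *IFNG* overlap.

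*KLRD1* and *IFNG* differed less in proportion. The ratio of *KLRD1* to *IFNG* was 1.43 in EM (95% limits 0.93 to 2.19), 1.26 in CPV (0.91 to 1.75), 0.80 in pyoderma case 1 (0.54 to 1.17) and 1.07 in pyoderma case 2 (0.79 to 1.46). The highest and the lowest biopsy differed by 1.79-fold and all 4 intervals overlapped. On the log2 scale EM was 0.48 above the comparatives, whose SD was 0.33. Set against *KLRD1* in place of *IFNG*, the chemokines were again highest in EM. The ratio of *CXCL10* to *KLRD1* was 127 in EM (95% limits 98.1 to 168), and the highest comparative was pyoderma case 1, at 62.0 (47.0 to 83.4). The ratio of *CCL5* to *KLRD1* was 64.2 in EM (49.4 to 84.9), 2.65-fold above pyoderma case 1. For the ratio to *KLRD1*, 44.7% of the other targets were highest in EM, and for 11.9% the limits of EM were clear above every comparative.

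The proportion of the 2 chemokines differed among the comparatives. The ratio of *CXCL10* to *CCL5* was 1.98 in EM (95% limits 1.90 to 2.06), 1.52 in CPV (1.41 to 1.64), 2.56 in pyoderma case 1 (2.40 to 2.73) and 1.56 in pyoderma case 2 (1.47 to 1.66). EM lay between the pyoderma biopsies, which differed by 1.64-fold and were further apart in this ratio than EM was from either. The ratio of *IL12B* to *IFNG* was 2.86 in CPV (2.17 to 3.81), 1.93 in EM (1.30 to 2.90), 0.72 in pyoderma case 1 (0.48 to 1.07) and 0.45 in pyoderma case 2 (0.30 to 0.66). Both biopsies without pyoderma were above both with it, and the lower limit of EM lay above the upper limits of both. This order held for 21.4% of the other targets. EM and CPV reached their high ratios differently, EM with the lowest *IFNG* and CPV with the highest *IL12B*. Among the 159 other targets, the ratio to *IFNG* was highest in CPV for 12.6%.

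Scaling moved both the levels and parts of the order. One of the 3 housekeeping genes, *B2M*, encodes the light chain of MHC class I and is itself raised by interferons, and 3 of the 9 scalings left out 1 housekeeping gene each. *B2M* had 79411 normalized counts in EM, 128575 in CPV, 76982 in pyoderma case 1 and 104671 in pyoderma case 2. *RPL13A* ran the other way, from 8667 in CPV to 16440 in EM. Over 9 scalings EM was lowest for *IFNG* in all 9 and highest for *CXCL10* and *CCL5* in all 9, and CPV was highest for *IL12B* in all 9. The full order of the 4 biopsies differed from that of the housekeeping scaling under 5 of 8 other scalings for *KLRD1*, 4 for *CCL5*, 3 for *IFNG*, 2 for *CXCL10* and 0 for *IL12B*. The log2 difference of *IFNG* ran from −1.40 without *B2M* to −0.77 with the panel total. The *IFNG* interval of EM lay clear below every comparative under 4 of the 9, the housekeeping scaling among them, where this held for 11.2% of targets. For *IL12B* the difference changed sign, from −0.44 to 0.20.

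**Figure D4:**
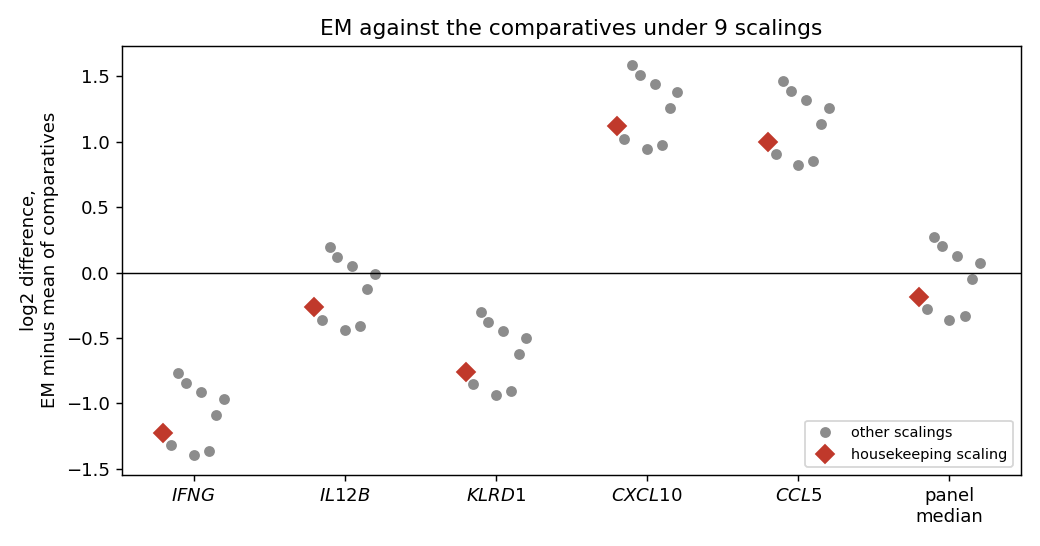
Log2 difference between EM and the mean of the 3 comparatives for each gene and for the median of all 160 targets, under the housekeeping scaling (diamonds) and 8 other scalings (circles). The signs of *IFNG*, *KLRD1*, *CXCL10* and *CCL5* hold under all 9, while *IL12B* and the panel median (from −0.36 to 0.27) cross 0.

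Of 54 other genes of the axis, 10 were paired with a target, 4 of them members, and none of 11 receptors and signalling genes was. As 88 of the 160 targets have no name here, further genes of the axis may be among them. In edgeR's quasi-likelihood test 0 of the 10 passed in either direction, with adjusted p from 0.714 to 0.917 and none at an unadjusted p under 0.05. Their median log2 fold change was −0.55, and that of all targets was −0.30. Of the 10, 2 were highest and 4 lowest in EM, near the 21.2% and 33.8% of the whole panel, and 2 of the 4, *IL21* and *IFNB1*, were within background there.

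Among the inducers and effectors, *IL21*, a T cell cytokine that acts on killer cells, was counted 9 times in EM, 22 times in CPV, 20 times in pyoderma case 1 and 14 times in pyoderma case 2. Its EM and pyoderma case 2 counts were within background. *TNF*, a cytokine of macrophages and T cells, had 87.1 normalized counts in EM, 118 in CPV, 172 in pyoderma case 1 and 156 in pyoderma case 2. EM was lowest under 7 of the 9 scalings, and both pyoderma biopsies were above both others, as they were for 18.8% of targets. *IFNB1*, a type I interferon that can also raise *CXCL10*, was counted 13 times in EM, 32 times in CPV, 14 times in pyoderma case 1 and 24 times in pyoderma case 2. The EM count was within background and near that of pyoderma case 1, so these 2 biopsies are not ordered.

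Among the chemokine targets, *CCL4*, a chemokine of macrophages and T cells, had 416 normalized counts in EM, 149 in CPV, 329 in pyoderma case 1 and 428 in pyoderma case 2. CPV was low, as for *CXCL10*, while EM and pyoderma case 2 differed by less than the counting error, and EM was highest under 6 of the 9 scalings. *CCL3*, an inflammatory chemokine of macrophages, had 126 normalized counts in EM, 161 in CPV, 190 in pyoderma case 1 and 119 in pyoderma case 2. With the housekeeping scaling *CCL3*, *CCL4* and *B2M* were neither highest nor lowest in EM. For *CCL3* the log2 difference between EM and the comparatives was −0.28, against 1.00 for *CCL5*.

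**Figure D5:**
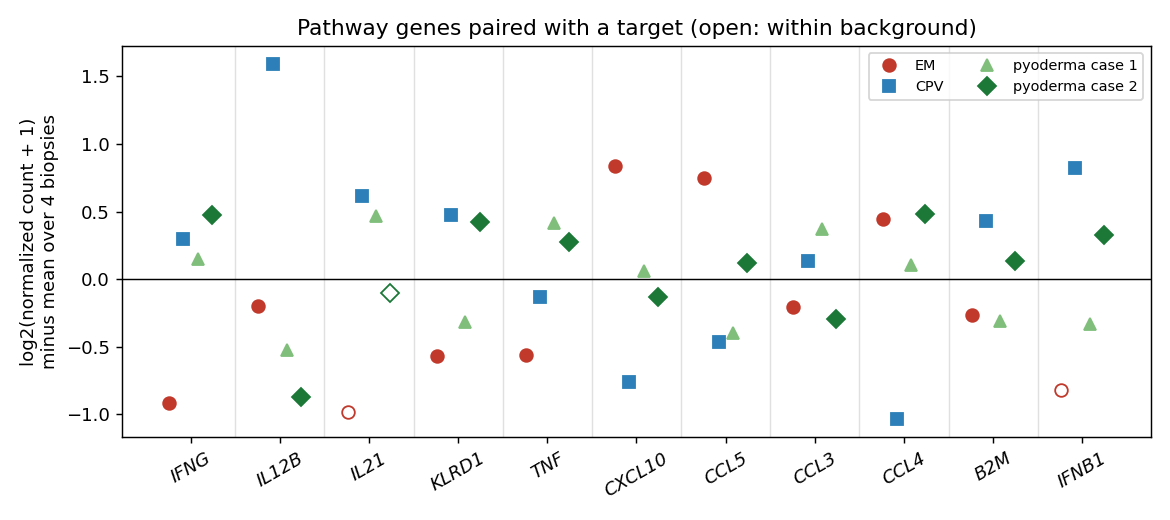
Level of *IFNG* and of the 10 other pathway genes paired with a target in each biopsy, as log2(normalized count + 1) minus its mean over the 4 biopsies; open symbols are counts within background. EM (circles) is the top symbol for *CXCL10* and *CCL5* and the bottom one for *IFNG*, *KLRD1* and *TNF* (under 5 of 9 scalings for *KLRD1* and 7 for *TNF*); its *IL21* and *IFNB1* counts are within background.

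Markers of other cells also differed between the biopsies, and their part in these results was not tested. None of the 11 listed T cell markers was among the targets named here, so T cells were not assessed, and some may be among the 88 targets without a name. Of 8 macrophage and dendritic cell markers, *CD163* and *CD86* were paired. Their summed level was 1045 normalized counts in EM and between 1273 and 2636 in the comparatives, highest in CPV as was *IL12B*. EM was lowest for *CD86* under all 9 scalings but for *CD163* under only 4, at 571 against 597 in pyoderma case 1. *CEACAM1*, the 1 of 4 genes listed for neutrophils that was paired, had 315 normalized counts in EM and between 837 and 2083 in the comparatives. It was highest in CPV and not in pyoderma, as was the epidermal sum given below. Which cells it came from was not tested, so it is not read as neutrophil content. The B cell marker *MS4A1*, 1 of 4, had 57.5 normalized counts in EM, within the 54.8 to 122 of the comparatives. *KRT1*, *KRT5*, *KRT14* and *KLK7*, 4 of 5 epidermal markers, summed to 282853 normalized counts in CPV, 211040 in pyoderma case 1, 111265 in EM and 79221 in pyoderma case 2. CPV, which had the lowest *CXCL10*, thus had the highest sum of these and the lowest *COL1A1*, the 1 of 4 dermal markers paired. The sum followed *KRT1*, *KRT5* and *KRT14*, each highest in CPV. *KLK7* did not, with 3252 normalized counts in CPV, 9312 in pyoderma case 1, 5544 in EM and 3143 in pyoderma case 2. Melanocyte markers shared with the chemokines only that EM was highest. Among the comparatives their sum was highest in CPV (133), where *CXCL10* was lowest. Of 5 listed, 3 were paired, all highest in EM under all 9 scalings, and they summed to 408 normalized counts in EM and between 83.7 and 133 in the comparatives. The largest difference among them was that of *DCT*, a melanin synthesis gene, with 258 normalized counts in EM and between 34.0 and 54.3 in the comparatives (unadjusted p = 0.00619, edgeR adjusted p = 0.714). The mast cell markers *MS4A2* and *KIT*, 2 of 3, summed to 670 normalized counts in EM, 201 in CPV, 1033 in pyoderma case 1 and 461 in pyoderma case 2. For *KIT* by itself, at 466 normalized counts in EM, EM came first with 8 of the 9 scalings. *MS4A2* did not share this, with 204 normalized counts in EM, 48.8 in CPV, 615 in pyoderma case 1 and 228 in pyoderma case 2.

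Likeness of pattern was measured as the root mean square distance between centred log2 levels over the 4 biopsies, which hardly depends on scaling and is given as a description. *IFNG* and *KLRD1* were 0.31 apart and *CXCL10* and *CCL5* 0.30 apart, while *CXCL10* and *IFNG* were 1.07 apart. The median over all pairs of the 51 other named targets above background was 0.85. *IL12B* was at least 0.88 from every other member. Nearest to *IFNG* were the hypoxia factor gene *HIF1A* (0.22), the noradrenaline transporter gene *SLC6A2* (0.27) and *CCL8* (0.27), a chemokine of monocytes. Nearest to *KLRD1* were the costimulatory gene *CD86* (0.19), *B2M* (0.21) and *CCL8* (0.25). *CXCL10* was nearest to the adrenergic receptor gene *ADRB1* (0.20), the ribosomal gene *RPL13A* (0.24) and the mast cell and melanocyte receptor gene *KIT* (0.28), and *CCL5* to the ectodysplasin gene *EDA* (0.21), the cytochrome P450 gene *CYP1B1* (0.21) and *RPL13A* (0.29). For *IL12B* the nearest, the macrophage scavenger receptor gene *CD163*, was 0.57 away, followed by *KRT14* (0.60).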

How the data were processed

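RNA was extracted by the authors from curls of the fixed blocks, hybridized to the panel and read on a Sprint machine, and raw probe counts were deposited, 1 column per biopsy, without scaling. Targets were named through a RefSeq gene table of the assembly UU_Cfam_GSD_1.0, versions ignored, which paired 72 of 160. Counts were scaled by 3 of the 4 housekeeping genes the authors name, and log2 values had a pseudocount of 1. EM was compared with the 3 comparatives by edgeR 4.0.16 (R 4.3.3), over all 160 targets with Benjamini-Hochberg adjustment, the lone EM biopsy being assumed to vary like the comparatives. The fit was tested on simulated data. DESeq2 1.42.0 was an alternative. Intervals are exact Poisson limits for counts and Clopper-Pearson limits for ratios. Other values and plots came from Python 3.11.15 with scipy 1.17.1 and matplotlib 3.10.9. The 5 genes and the lists were chosen with earlier results of these data known. Named genes are the members, housekeeping genes, paired pathway and marker genes and the 3 nearest in pattern to each member, of which 1 is not reported here. The genes of the closing ratios were chosen after their values were seen. Sequences are not given here.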

Additional observations from a re-analysis of the deposited data

How the results depend on the processing

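By edgeR's quasi-likelihood test 0 targets passed, with 6 unadjusted, and 0 passed under 13 of 15 alternatives, DESeq2 included, with 5 to 14 unadjusted. With each comparative left out in turn the count was 0 to 2, and the 2 came without the CPV biopsy. A 3-group fit of EM against pyoderma gave 2 as well, and no member was among them. The unadjusted split of 3 higher and 3 lower ran from 2 and 7 without *HPRT1* to 6 and 1 unscaled over the scalings, and was 7 and 2 with TMM and 2 and 9 with DESeq2. It was 2 and 10 without CPV, 6 and 7 without pyoderma case 1 and 2 and 12 without pyoderma case 2. Of 70 recomputed log2 differences of the members, 59 stayed within 1 SD of the comparatives. For *IFNG* 7 did not, at −0.77 for panel-total scaling, −0.84 for unscaled counts, −1.40 without *B2M*, −0.91 without *RPL13A*, −0.97 with TMM, −1.04 for pseudocount 10 and −1.42 with background subtracted. With the panel total *KLRD1* moved to −0.30, *CXCL10* to 1.58 and *CCL5* to 1.46, and *CCL5* was 1.39 unscaled. A scaling shifts every gene nearly alike on the log2 scale, while the limit of 1 SD differed between genes, from 0.16 for *IFNG* to 1.33 for *IL12B*. *IL12B*, within the range of the comparatives, changed sign with the panel total (0.20), unscaled (0.12), without *RPL13A* (0.05) and without CPV (0.50), and was −0.56 and −0.74 without pyoderma case 1 and case 2. Of 35 recomputed log2 differences of ratios, 34 stayed within 1 SD, and *CCL5* to *IFNG* was 2.46 with background subtracted. Without CPV the log2 difference of *CXCL10* to *CCL5* went from 0.12 to −0.01, that of *IL12B* to *IFNG* from 0.99 to 1.76 (0.43 without pyoderma case 2), and that of *CXCL10* to *IFNG* from 2.37 to 2.13. *KLRD1* to *IFNG* was 0.48 and 0.30 without pyoderma case 1. No paired analysis was possible because each biopsy came from a different dog. Depth limits *IFNG*, *KLRD1* and *IL12B*, whose counts lie between 38 and 200.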

Other observations

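*IFNG* was also set against cytokines of other arms, as ratios of raw counts with exact 95% limits. *IFNG* to *IL13*, a T helper 2 cytokine, was 2.69 (1.69 to 4.40) in CPV and 2.36 (1.58 to 3.59) in pyoderma case 2, and 1.05 (0.66 to 1.69) in EM and 1.00 (0.70 to 1.44) in pyoderma case 1. The limits of the pyoderma biopsies did not overlap, while those of EM overlapped both. *IFNG* to *IL10*, a cytokine that restrains inflammation, was 0.31 (0.22 to 0.45) in EM, 0.57 (0.42 to 0.78) in CPV, 0.50 (0.37 to 0.69) in pyoderma case 1 and 1.10 (0.80 to 1.52) in pyoderma case 2. *IFNG* to *TNF* was between 0.38 in EM and 0.66 in CPV, and all 4 intervals overlapped. Against *IL1B*, an inflammatory cytokine of macrophages, EM was highest, at 1.14 (0.71 to 1.85), followed by 1.08 (0.76 to 1.53) in CPV. Pyoderma case 2 had 0.64 (0.48 to 0.85) and pyoderma case 1 had 0.42 (0.31 to 0.56). *IL1B* was itself lowest in EM under all 9 scalings, at 28.7 normalized counts against between 72.1 and 168 in the comparatives. The ratio of *IL12B* to *IL10* was 1.64 (1.30 to 2.07) in CPV and between 0.36 and 0.61 in the others. That of *KLRD1* to *MS4A1* was 0.81 (0.56 to 1.17) in EM, within the 0.46 to 1.72 of the comparatives. *IL4* was within background in all 4 biopsies.

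*CXCL10* and *CCL5* were also set against *CCL2*, a chemokine of monocytes. The ratio of *CXCL10* to *CCL2* was 3.86 (3.67 to 4.07) in EM and 0.60 (0.57 to 0.64) in CPV. In pyoderma it was 0.98 (0.94 to 1.03) for case 1 and 1.14 (1.08 to 1.20) for case 2. That of *CCL5* to *CCL2* was 1.95 (1.84 to 2.06) in EM and between 0.38 and 0.73 in the comparatives. *CCL2* was itself lowest in EM under all 9 scalings, which raises both ratios there. It had 1541 normalized counts in EM and between 2658 and 3522 in the comparatives. These genes were chosen after their values were seen, with no test.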
